A study of Mus musculus with 6 samples.

Results

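Interferon-stimulated genes are switched on when a cell senses interferon, and 39 of them were examined here by their symbols in the deposited table of raw counts. The list covers effectors and sensors, leaves out the interferon regulatory factors, and was matched in full: all 39 have a row among the 17523 rows of the table. RNA sequencing was done on FACS-sorted bone marrow cells of C57BL/6 mice, described by the series as hematopoietic stem cells (HSCs). Wild-type (WT) mice gave 3 libraries and NHD13 mutant mice gave 3. The NHD13 mutation is a fusion of NUP98, a nuclear pore protein, with the homeobox protein HOXD13, and it models myelodysplastic syndrome, a clonal disorder of blood formation. The sort markers, the age of the mice, the promoter that drives the fusion and any pooling of animals are not named in the labels. Whether the libraries of a genotype came from separate mice is not stated either, so the p-values measure only the spread between these libraries, which may be technical.

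Type I interferons signal through IFNAR1 and IFNAR2 and the kinases JAK1 and TYK2 to a transcription factor complex with STAT2 and IRF9, which binds the interferon-stimulated response element in target promoters. Interferon gamma signals through its own receptor pair, and its target promoters are known for another element, the gamma-activated site. The products of the target genes sense viral RNA, degrade or edit it, block translation, or restrict viruses and bacteria at membranes. In blood stem cells these genes are known to be expressed at a basal level without infection, and interferon is known to drive resting stem cells into cycle.

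Total counts ran from 12541538 to 14388772 per library, and at a count of 0 the level could reach 0.239 CPM (counts scaled to the library size) in the shallowest library. The row for the fusion transcript, NUP98-HOXD13, held 0 counts in the WT libraries and 167 to 185 in the NHD13 libraries. Markers of the labelled cell type were low beside those of maturing myeloid cells. The 13 long-term HSC markers summed to 288 to 311 CPM in WT and 250 to 271 CPM in NHD13, most of it from Kit. Procr, which defines long-term HSCs, was too low to test, at 0.149 to 0.553 CPM (WT) and 0.0691 to 0.225 CPM (NHD13). The markers did not all move the same way. Of 8 tested, Mecom was higher in NHD13 (means 1.01 and 6.77 CPM) and 3 were lower (Hlf, Tek and Ly6a). That is 12.5% and 37.5%, where 15.0% of all tested genes were higher and 15.3% lower. The 11 neutrophil markers summed to 45400 to 60400 CPM in WT and 35100 to 37900 CPM in NHD13. NHD13 replicate 1 stood apart from the other two: it was the NHD13 library nearest to the WT mean for 83.9% of the 1799 genes higher in NHD13 and for 64.7% of the 1839 lower genes. Summed RNA of 4 Y-linked genes ranged over 110 to 192 CPM (WT) and 176 to 280 CPM (NHD13), with means of 138 and 236 CPM, and 3 of the 4 were higher in NHD13. Fits that hold this share as a covariate are given for the interferon-stimulated genes and the named pathway genes, and not for cell type markers. The covariate goes in part with genotype, so a call lost in such a fit cannot be told apart from a loss of the genotype contrast.

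Promoter sequence from RefSeq (GRCm38.p6, which is mm10) was found for 30 of the 39 genes and searched over the 250 bases upstream of each annotated start. The response element was searched on both strands as GAAA, any 2 bases and GAAA. It was present for 15 of the 30 genes, against 3.17% of all 12509 genes of the table with a promoter entry and 2.63% of all 15698 promoter entries. The gamma-activated site, searched as TTCNNNGAA, which reads the same on both strands, was present for 7 of the 30 genes (23.3%) against 7.30% of all genes and 6.11% of all entries. The letters of the response element occurred for 5 of 10 genes that rose in NHD13, 4 of 7 that fell and 5 of 12 tested genes that did not pass. A gene was counted if any of its promoter entries held a match. A match is a description of the sequence, and none says only that these letters are not in this window. The stretches below show the element, in capitals, in 4 genes that rose (Isg15, Ifit1, Oas1a and Rsad2), in 3 that fell (Gbp3, Ifitm2 and Irgm2) and in Igtp, a neighbour of Irgm2 that did not pass, each 5′ to 3′ on the strand of the gene. Overlapping matches are capitalised as 1 run.
Isg15 (chr4:156200830-156200929, minus strand): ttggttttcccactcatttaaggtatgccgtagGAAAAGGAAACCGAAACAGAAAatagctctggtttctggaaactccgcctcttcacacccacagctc
Ifit1 (chr19:34640759-34640858, plus strand): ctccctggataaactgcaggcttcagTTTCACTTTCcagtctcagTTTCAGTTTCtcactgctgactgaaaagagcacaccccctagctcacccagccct
Oas1a (chr5:120907526-120907584, minus strand): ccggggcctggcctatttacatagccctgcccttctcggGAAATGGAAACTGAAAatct
Rsad2 (chr12:26456518-26456617, minus strand): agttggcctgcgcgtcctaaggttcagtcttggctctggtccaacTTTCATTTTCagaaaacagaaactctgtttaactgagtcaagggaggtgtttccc
Gbp3 (chr3:142559960-142560025, plus strand): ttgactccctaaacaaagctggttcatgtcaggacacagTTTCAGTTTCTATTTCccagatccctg
Ifitm2 (chr7:140955988-140956052, minus strand): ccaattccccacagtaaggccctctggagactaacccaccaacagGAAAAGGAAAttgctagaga
Irgm2 (chr11:58214868-58214967, plus strand): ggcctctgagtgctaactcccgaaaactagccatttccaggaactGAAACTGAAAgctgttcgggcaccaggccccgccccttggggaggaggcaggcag
Igtp (chr11:58199477-58199555, plus strand): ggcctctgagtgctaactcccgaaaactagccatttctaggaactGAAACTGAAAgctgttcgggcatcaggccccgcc
The Irgm2 stretch lies upstream of the RefSeq start, inside the longer gene span of GENCODE. The Igtp stretch matched the first 79 bases of the Irgm2 stretch at 77 positions.

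The interferon-stimulated genes moved in both directions. Of 38 tested, 13 rose and 8 fell in NHD13 and 17 did not pass an adjusted p of 0.05 (edgeR quasi-likelihood test, Benjamini-Hochberg over all 12013 tested genes). That is 34.2% higher and 21.1% lower, where 15.0% of all tested genes were higher, 15.3% lower and 30.3% past the threshold in either direction. Oasl1, Isg15, Rsad2, Oas2 and Rtp4 rose at least 2-fold, and Ifitm1 and Gbp3 fell at least 2-fold. The median log2 change was 0.23 over the 38 genes and 0.0011 over all tested genes. Every NHD13 library lay above every WT library for 12 of the 38 genes and below for 7, against 23.5% and 22.6% of all tested genes and 46.1% for both directions together. All 21 genes past the threshold had at least 10 counts in every library of both groups, so none of them entered the test only through the group where it was high. Only Ifit3 was too low to test. Summed over the 39 genes, the level was 954, 1010 and 1050 CPM in the WT libraries and 957, 1050 and 1100 CPM in the NHD13 libraries, and the groups overlapped. In bulk RNA, fewer cells of a type and less RNA per cell cannot be told apart.

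**Figure D1:**
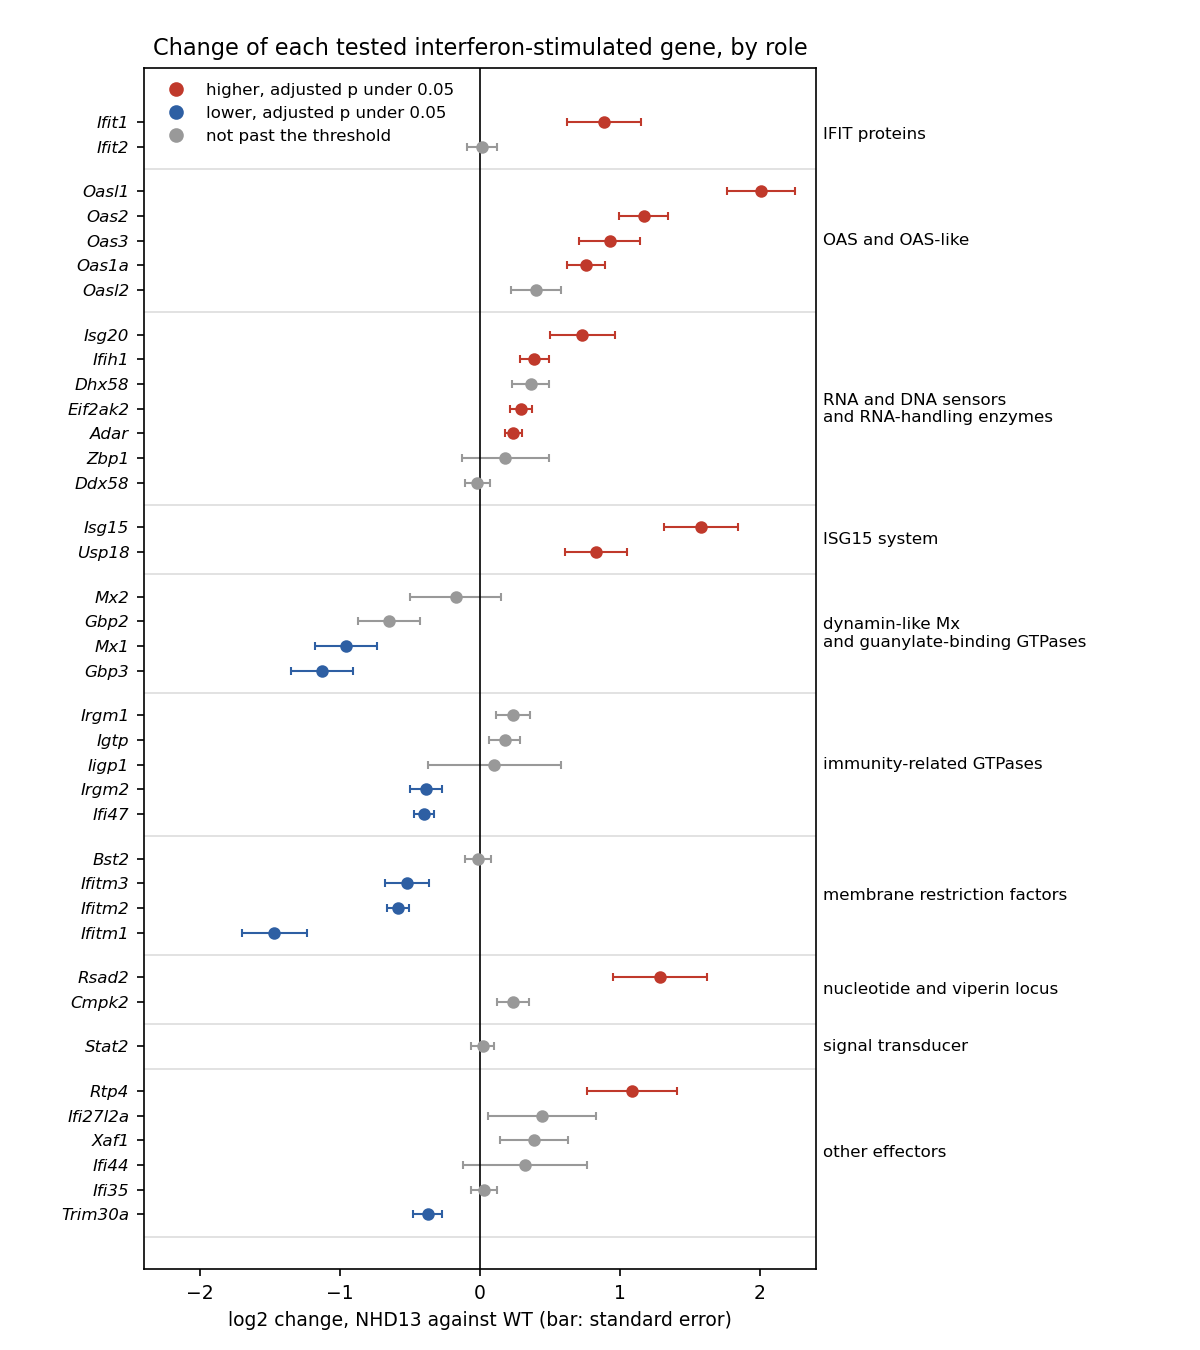
Log2 change of each of the 38 tested interferon-stimulated genes in NHD13 against WT (horizontal axis) with its standard error (bars), grouped by role. Points are red for the 13 that rose, blue for the 8 that fell and grey for the 17 that did not pass, and the OAS and ISG15 rows lie to the right while the Mx, guanylate-binding and IFITM rows lie to the left.

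Most of the oligoadenylate synthetases rose. These enzymes bind double-stranded RNA and make the second messenger that activates RNase L, which cuts viral and cellular RNA. Of the 5 on the list 4 rose (80%, against 15.0% of all tested genes). The summed level of the 5 was 34.1, 46.4 and 48.8 CPM in WT against 74.3, 93.3 and 103 CPM in NHD13. Oasl1 (mm10 chromosome 5, 114923240 to 114937915), an OAS-like protein without synthetase activity that is known to restrain translation of Irf7, was at 4.19, 5.58 and 6.2 CPM in WT replicates 1 to 3 and at 14.3, 24.7 and 25.4 CPM in NHD13 replicates 1 to 3. The groups did not overlap, and the 4.02-fold rise (log2 change 2.01, SE 0.24, adjusted p = 0.00117) was the largest among the interferon-stimulated genes listed. Oas2 (chromosome 5, 120730333 to 120749853), a synthetase made of repeated OAS units, was at 6.32, 9.08 and 9.48 CPM in WT and 16.9, 17.5 and 21.7 CPM in NHD13, a 2.25-fold rise (log2 change 1.17, SE 0.17, adjusted p = 0.00267). Every NHD13 library was above the highest WT library by more than the spread within WT. Oas3 (chromosome 5, 120753098 to 120777661), another synthetase, was at 9.49, 17 and 15.6 CPM and at 20.9, 28.7 and 30.4 CPM (log2 change 0.93, SE 0.22, adjusted p = 0.0145). Its call was lost without NHD13 replicate 2 or 3 (adjusted p = 0.0528 to 0.0539). Oas1a (chromosome 5, 120896256 to 120907521), whose promoter is shown above, was at 8.22, 6.7 and 8.43 CPM and at 12.1, 13.4 and 14 CPM (log2 change 0.76, SE 0.14, adjusted p = 0.00555). Oasl2 had a WT mean of 7.68 CPM ± 1.6 and an NHD13 mean of 10.2 CPM ± 1.25 (SD, n = 3 each; log2 change 0.40, SE 0.18, adjusted p = 0.124). The table holds 10 genes with an Oas symbol, of which 8 were tested and 5 rose. The addition to the list is Oas1g, named after its values were seen, at 0.837 CPM ± 0.122 and 2.36 CPM ± 0.433 (log2 change 1.48, SE 0.27, adjusted p = 0.00575). The Oas1 genes are close copies and their reads may be shared. In the fit that held the Y-linked share, Oasl1 (adjusted p = 0.0178) and Oas2 (0.00665) stayed past the threshold and Oas1a (0.116), Oas3 (0.0534) and Oas1g (0.108) did not.

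Both genes of the ISG15 system rose, where 15.0% of all tested genes were higher. Isg15 (chromosome 4, 156199424 to 156200818) encodes a ubiquitin-like protein that is attached to other proteins after interferon. It was at 1.9, 3.35 and 3.9 CPM in WT and at 7.05, 9.95 and 10.5 CPM in NHD13, 2.98-fold higher (log2 change 1.58, SE 0.26, adjusted p = 0.00431). The lowest NHD13 library was above the highest WT library, and the call held with the Y-linked covariate (adjusted p = 0.0398). Usp18 (chromosome 6, 121245906 to 121270917), the protease that removes ISG15 and also blocks signalling at the type I interferon receptor, was at 3, 4.02 and 4.81 CPM in WT and at 5.55, 8.14 and 7.4 CPM in NHD13 (log2 change 0.83, SE 0.22, adjusted p = 0.024). It was not past the threshold without WT replicate 1 or 2 or NHD13 replicate 2 or 3 (adjusted p = 0.0717 to 0.0948).

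Rsad2 and Cmpk2 lie next to each other on chromosome 12 in opposite orientation and are often induced together. Rsad2 (26442746 to 26456452) encodes viperin, which makes a nucleotide that stops viral polymerases, and was at 3.08, 5.73 and 7.25 CPM in WT and 7.95, 16.7 and 14.7 CPM in NHD13. The groups did not overlap, although NHD13 replicate 1 was close to WT replicate 3. The change was 2.44-fold (log2 change 1.28, SE 0.34, adjusted p = 0.0219) and was lost without WT replicate 1 or 2 or NHD13 replicate 2 or 3 (adjusted p = 0.0601 to 0.0821) and with no count filter (0.0594). Cmpk2 (26469204 to 26479837), a mitochondrial nucleotide kinase, was at 50.5, 58.7 and 56 CPM and at 53.6, 72.3 and 68.6 CPM (log2 change 0.23, SE 0.12, adjusted p = 0.159). Its groups overlapped, and it passed without NHD13 replicate 1 (log2 change 0.36, adjusted p = 0.00211).

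**Figure D2:**
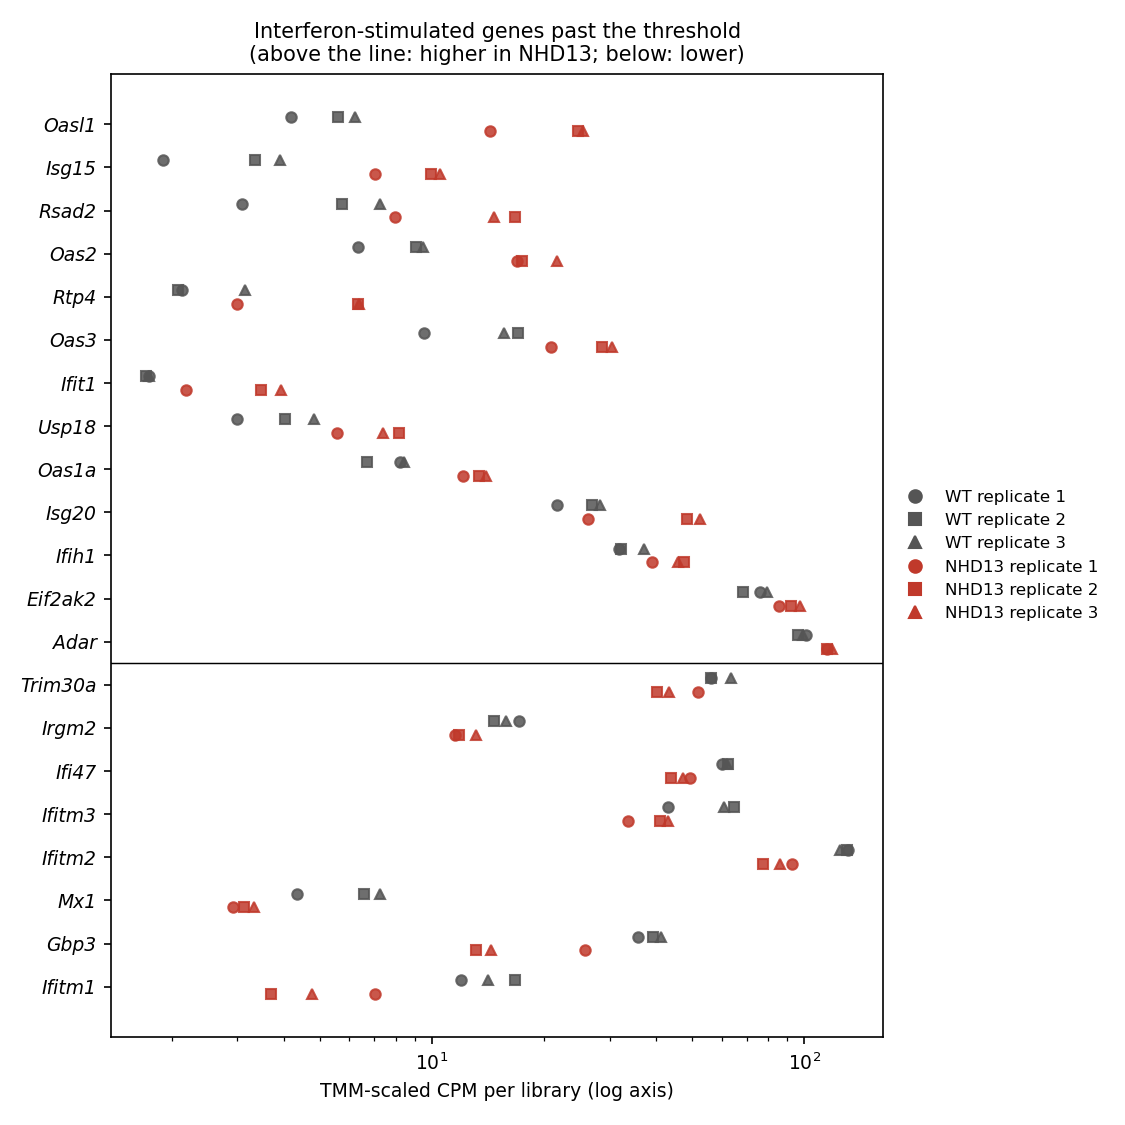
TMM-scaled CPM (log axis) of the 21 interferon-stimulated genes past the threshold in each library, WT in grey and NHD13 in red, with the symbol giving the replicate. The 13 genes above the line rose and the 8 below fell, and NHD13 replicate 1 (red circle) is often the NHD13 library nearest to WT, as for Isg20 (26.3 CPM beside 28.3 CPM in WT replicate 3).

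Among 7 sensors and RNA-handling enzymes 4 rose (57.1%, against 15.0% of all tested genes), with log2 changes of 0.24 to 0.73. Adar (chromosome 3, 89715022 to 89753446), which edits adenosine to inosine in double-stranded RNA, was at 101, 96.3 and 99.4 CPM in WT and 115, 115 and 119 CPM in NHD13 (log2 change 0.24, SE 0.06, adjusted p = 0.0193). The gene overlaps Chrnb2 on the other strand, and reads of the 2 cannot be told apart because the strand setting is not stated. Eif2ak2 (chromosome 17, 78852564 to 78882573), the kinase PKR that stops translation on sensing double-stranded RNA, was at 76.1, 68.5 and 79.6 CPM and at 85.4, 92.1 and 97.2 CPM (log2 change 0.29, SE 0.08, adjusted p = 0.0277). Ifih1 (chromosome 2, 62595798 to 62646255), which encodes the long-RNA sensor MDA5, was at 31.7, 32.2 and 37 CPM and at 38.9, 47.6 and 45.7 CPM (log2 change 0.39, SE 0.10, adjusted p = 0.0226). For these 3 genes the groups did not overlap, with gaps that were small beside the level. Isg20, an RNA exonuclease, ran from 21.6 to 28.3 CPM in WT and from 26.3 to 52.5 CPM in NHD13 (log2 change 0.73, SE 0.23, adjusted p = 0.0444), and its groups overlapped. Each of the 4 calls depended on single libraries. Adar was lost without WT replicate 2 or 3 or NHD13 replicate 2 or 3 (adjusted p = 0.0675 to 0.0956). Ifih1 was lost without WT replicate 1 or 2 or NHD13 replicate 2 or 3 (0.078 to 0.0961). Eif2ak2 (0.0534 to 0.117) and Isg20 (0.0973 to 0.151) were lost without any 1 WT library or NHD13 replicate 2 or 3, as adjusted p. Isg20 was also lost with upper-quartile scaling (0.0581), limma-voom (0.0747) and no count filter (0.139).

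The other sensors were close to equal or varied between libraries. Ddx58 (chromosome 4, 40203773 to 40239828), which encodes the RNA sensor RIG-I, was at 25.7, 30.1 and 28.2 CPM in WT and 26.9, 27.5 and 28.5 CPM in NHD13 (log2 change -0.02, SE 0.09, adjusted p = 0.887). Dhx58, its relative LGP2, was at 15.9 CPM ± 1.45 and 20.5 CPM ± 3.02 (n = 3 each; log2 change 0.36, SE 0.13, adjusted p = 0.0708). All NHD13 libraries of Dhx58 lay above WT, and it passed without NHD13 replicate 1 (adjusted p = 0.00268). Zbp1, a sensor of Z-form nucleic acids that can trigger cell death, ran from 1.66 to 3.83 CPM in WT and from 2.85 to 4.1 CPM in NHD13.

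Of the IFIT genes, Ifit1, whose product binds viral RNA with an incomplete cap, rose and Ifit2 did not pass. Ifit1 (chromosome 19, 34640871 to 34650009) was at 1.74, 1.71 and 1.74 CPM in WT and at 2.18, 3.48 and 3.94 CPM in NHD13 (log2 change 0.89, SE 0.27, adjusted p = 0.0351). The WT libraries were nearly equal and every NHD13 library was above them. Ifit2 (chromosome 19, 34550694 to 34576419), with the higher WT level per kilobase of exon (9.68 against 0.651 CPM per kilobase), was at 36.4, 38.7 and 38.7 CPM in WT and at 32.7, 43.7 and 38.4 CPM in NHD13 (log2 change 0.01, SE 0.11, adjusted p = 0.945). Ifit3, between them on the chromosome, had 0.436 CPM ± 0.314 in WT and 0.655 CPM ± 0.316 in NHD13 and was not tested. Rtp4 (chromosome 16, 23520291 to 23614222), a chaperone of cell surface receptors that interferon induces, was at 2.13, 2.08 and 3.14 CPM and at 3, 6.33 and 6.36 CPM (log2 change 1.09, SE 0.32, adjusted p = 0.0336). NHD13 replicate 1 lay inside the WT range of Rtp4. The calls of Ifit1 (adjusted p = 0.0848 to 0.136) and Rtp4 (0.0596 to 0.124) were lost without any 1 WT library or NHD13 replicate 2 or 3, and that of Rtp4 also by limma-voom (0.054).

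The IFITM genes fell. They encode small membrane proteins that hold incoming viruses in endosomes, and Ifitm1 and Ifitm3 are also known markers of embryonic germ cells. Ifitm2 (chromosome 7, 140954837 to 140955987) was at 131, 130 and 125 CPM in WT and 92.9, 77.5 and 85.8 CPM in NHD13 (log2 change -0.59, SE 0.08, adjusted p = 0.00166). Ifitm1 (chromosome 7, 140967221 to 140969825) was at 12, 16.7 and 14.1 CPM and at 7.05, 3.69 and 4.77 CPM, 2.77-fold lower (log2 change -1.47, SE 0.23, adjusted p = 0.00338). For both genes every NHD13 library was below every WT library. Ifitm3 (chromosome 7, 141009586 to 141010770) was at 43, 64.9 and 60.8 CPM and at 33.7, 40.9 and 43.1 CPM (log2 change -0.52, SE 0.16, adjusted p = 0.036). WT replicate 1 and NHD13 replicate 3 of Ifitm3 were level, and the call was lost without WT replicate 2 or 3 or any 1 NHD13 library (adjusted p = 0.0528 to 0.141) and with no count filter (0.0549). The table holds 7 genes with an Ifitm symbol, of which 5 were tested and 4 fell, where 15.3% of all tested genes were lower. The fourth is Ifitm6, named after its values were seen, at 176 CPM ± 59.6 and 92.7 CPM ± 11.4 (log2 change -0.92, SE 0.23, adjusted p = 0.0171), lost without WT replicate 2 or 3 or NHD13 replicate 1 (adjusted p = 0.0692 to 0.175) and with no count filter (0.0941). Ifitm1, Ifitm2 and Ifitm3 lie together on chromosome 7 and are similar in sequence, so reads may be shared. Bst2 (chromosome 8, 71534255 to 71537456), which encodes tetherin, the protein that holds budding virus at the cell surface, was at 31.1, 37.2 and 36.4 CPM in WT and 33.4, 34.3 and 36.1 CPM in NHD13 (log2 change -0.01, SE 0.09, adjusted p = 0.927).

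Guanylate-binding proteins and Mx proteins are large GTPases, the first acting on vacuoles of intracellular bacteria and the second on viral nucleocapsids. Gbp3 (chromosome 3, 142560026 to 142573209) was at 35.7, 39.2 and 41.1 CPM in WT and at 25.8, 13.1 and 14.4 CPM in NHD13 (2.19-fold lower, log2 change -1.13, SE 0.22, adjusted p = 0.00779). NHD13 replicate 1 was between the WT libraries and the other NHD13 libraries. Gbp2 was at 6.9 CPM ± 1.55 and 4.4 CPM ± 0.864 (n = 3 each; log2 change -0.65, SE 0.22, adjusted p = 0.0556), and it passed without WT replicate 1 (adjusted p = 0.0271), by DESeq2 (0.049), with upper-quartile scaling (0.0481), with no count filter (0.0461) and with both replicates 1 left out (0.00366). Mx1 (chromosome 16, 97447035 to 97462907) was at 4.35, 6.55 and 7.25 CPM and at 2.93, 3.13 and 3.32 CPM (log2 change -0.95, SE 0.22, adjusted p = 0.0141). C57BL/6 mice are known to carry a defective Mx1 allele, and the counts here measure its RNA only. The groups did not overlap, and the call was lost without WT replicate 2 or 3 (adjusted p = 0.0619 to 0.0677). Mx2 was near 1 CPM in both groups (1.02 ± 0.178 and 0.893 ± 0.262). Of 10 genes with a Gbp symbol 5 were tested and 2 fell, Gbp3 and Gbp5, where 15.3% of all tested genes were lower. Gbp5, named after its values were seen, was at 10.7 CPM ± 0.475 and 5.9 CPM ± 1.64 (log2 change -0.87, SE 0.19, adjusted p = 0.0114), lost without WT replicate 3 (adjusted p = 0.0503).

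The immunity-related GTPases, which interferon gamma induces and which attack vacuoles that hold parasites, gave 2 genes that fell, 3 that did not pass and none that rose. That is 40% lower, where 15.3% of all tested genes were lower. Ifi47 (chromosome 11, 49076587 to 49096974) was at 60.2, 62.5 and 62 CPM in WT and at 49.2, 43.9 and 47.2 CPM in NHD13 (log2 change -0.40, SE 0.07, adjusted p = 0.00541). The WT libraries differed by less than the gap between the groups. Its gene model overlaps Olfr56 on the same strand, so the assignment of reads is uncertain. Irgm2 (chromosome 11, 58199618 to 58222782) was at 17.1, 14.7 and 15.8 CPM and at 11.5, 11.8 and 13.1 CPM (log2 change -0.38, SE 0.11, adjusted p = 0.034). Igtp, which overlaps Irgm2 on the same strand and shares nearly all of the promoter stretch printed above, was at 17.1 CPM ± 1.53 and 19.3 CPM ± 1.63 (n = 3 each; log2 change 0.18, SE 0.11, adjusted p = 0.262). How reads divide over the shared span is uncertain, and the difference between their changes was not tested. Irgm1 (chromosome 11, 48861968 to 48871683), a regulator of the other GTPases that is known to protect stem cells from interferon-driven loss, was at 49.4, 41.6 and 50.4 CPM and at 46.1, 58.1 and 62.2 CPM (log2 change 0.23, SE 0.12, adjusted p = 0.179). It passed without NHD13 replicate 1 (log2 change 0.36, adjusted p = 0.00523). The call of Irgm2 was lost without any 1 WT library or NHD13 replicate 2 or 3 (adjusted p = 0.0581 to 0.101) or both replicates 1 (0.0545). Iigp1, on chromosome 18, was near the detection limit at 0.787 CPM ± 0.245 and 0.841 CPM ± 0.508.

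Of the remaining effectors, Trim30a fell. Trim30a (chromosome 7, 104409025 to 104465193), a ring-finger protein that dampens Toll-like receptor signalling, was at 56, 56 and 63.5 CPM in WT and at 51.8, 40.3 and 43.3 CPM in NHD13 (log2 change -0.37, SE 0.10, adjusted p = 0.0277). NHD13 replicate 1 lay just below the WT range, and the call was lost without any 1 WT library or NHD13 replicate 2 or 3 (adjusted p = 0.0502 to 0.114). Stat2 (chromosome 10, 128270559 to 128292849), the STAT protein specific to type I and III interferon signalling, was at 54.8, 48.7 and 49.3 CPM and at 51.2, 48.3 and 55.4 CPM (log2 change 0.02, SE 0.08, adjusted p = 0.879). Ifi35, at 25 CPM ± 1.03 and 25.5 CPM ± 1.97 (n = 3 each), was as level as Stat2. Xaf1, Ifi27l2a and Ifi44 had WT means of 1.27 to 5.64 CPM and log2 changes of 0.32 to 0.44, none past the threshold. Xaf1, an antagonist of apoptosis inhibitors, passed without NHD13 replicate 1 (adjusted p = 0.00886).

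Levels of the 39 genes were ordered after division by exon length, as the mean CPM per kilobase. In WT the highest were Ifitm2 at 195, Ifitm3 at 83 and Bst2 at 38.6 CPM per kilobase, followed by Ifi47 at 24.9. In NHD13 the first 3 kept that order at 130, 57.8 and 38.3, and Isg20 at 22.8 was next. Isg15 went from place 21 of 39 in WT to place 10 in NHD13, Oasl1 from place 25 to 16, and Ifitm1 from place 10 to 21. Iigp1 was lowest in both, at 0.135 and 0.144 CPM per kilobase. Cmpk2 at 13.2 and Ifitm1 at 13.1 in WT, neighbours in this order, did not differ beyond the spread between libraries.

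The libraries of a group were not alike over these genes. NHD13 replicate 1 was the NHD13 library nearest to the WT mean for all 13 genes that rose and for 5 of the 8 that fell. It was the lowest NHD13 library for 30 of the 38 tested genes, and NHD13 replicate 3 was the highest for 26. In WT, replicate 1 was the lowest for 27 of the 38 and replicate 3 the highest for 22. For the genes that rose, the median log2 ratio to the WT mean was -0.24, 0.02 and 0.15 in WT replicates 1 to 3 and 0.45, 0.96 and 1.02 in NHD13 replicates 1 to 3. The matching medians for the genes that fell were -0.09, 0.02 and 0.05 in WT and -0.52, -0.63 and -0.50 in NHD13. Without NHD13 replicate 1, 17 genes rose and 7 fell, including all 13 that rose in the full set and 7 of the 8 that fell. That fit tested 39 of the listed genes, and 24.5% of all its tested genes were higher and 24.2% lower. Leaving out WT replicate 1 gave 6 that rose, all among the 13, and 7 that fell, 6 of them among the 8 and the other Gbp2. Of all tested genes 9.88% were higher and 13.2% lower in that fit. Leaving out WT replicate 2 gave 5 and 4, and WT replicate 3 gave 8 and 4. The shares of all tested genes were 6.8% higher and 7.86% lower without WT replicate 2. They were 6.64% and 8.06% without WT replicate 3. Leaving out NHD13 replicate 2 or NHD13 replicate 3 gave 4 and 5 each time. The shares of all tested genes were 6.23% higher and 8.76% lower without NHD13 replicate 2. They were 6.86% and 9.05% without NHD13 replicate 3.

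**Figure D3:**
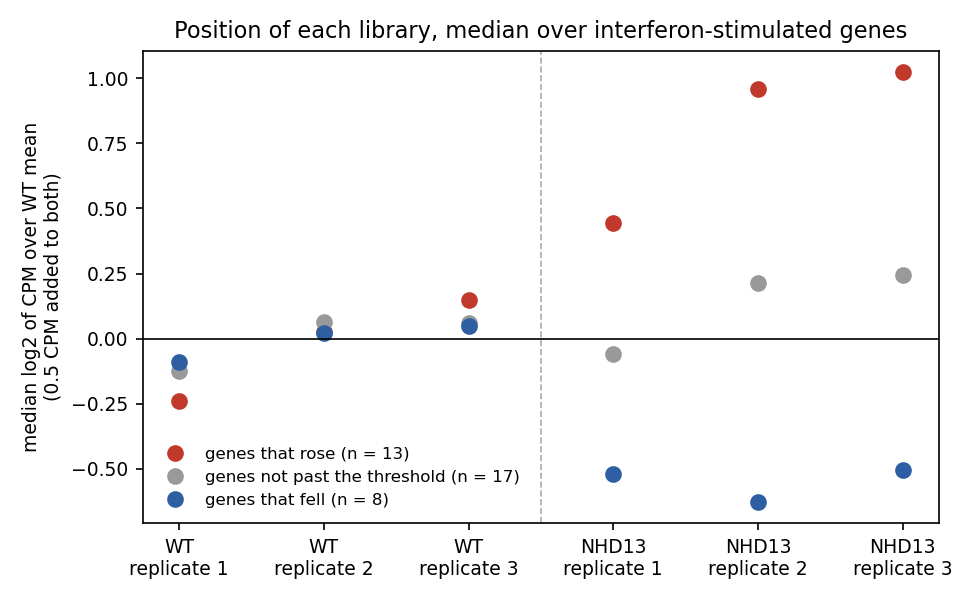
Median log2 ratio of CPM to the WT mean (vertical axis, 0.5 CPM added to both) in each library over the 13 genes that rose (red), the 17 not past the threshold (grey) and the 8 that fell (blue). NHD13 replicate 1 sits at 0.45 for the genes that rose, below 0.96 and 1.02 in replicates 2 and 3, and all NHD13 libraries lie between -0.63 and -0.50 for the genes that fell.

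The rest of the pathway was read from 9 further lists, which hold 137 genes, of which 125 have a row and 109 were tested. Of the 109, 12 rose and 38 fell, or 11% and 34.9%, with a median log2 change of -0.20, where 15.0% of all tested genes were higher and 15.3% lower. Of the 50 that passed, Ciita, Tlr3 and Ifi205 had under 10 counts in at least 1 NHD13 library and entered the test through their WT counts, so their place among those that fell is not independent of that filter. With the Y-linked covariate 1 of the 109 rose and 3 fell (Ifi203, Ifi205 and Cd74), where 0.924% of all tested genes were higher and 1.46% lower. Every other pathway gene named as changed lost its call in that fit. Of 10 listed interferon ligands only Ifng and Ifnk have a row, and these 2 were at the detection limit, with 0 or 1 count per library. The ligands without a row could not be read, so their level is not known. Of 6 receptor chains 5 fell. Ifngr2, the signalling chain of the interferon gamma receptor, had 45.1, 49.9 and 47.2 CPM in WT and 35.8, 26.9 and 29.2 CPM in NHD13 (log2 change -0.63, SE 0.11, adjusted p = 0.00495). The type I receptor chains Ifnar2 (99.5 CPM ± 3.96 to 74.3 CPM ± 5.97, adjusted p = 0.00581) and Ifnar1 (78.9 CPM ± 2.86 to 59 CPM ± 6.01, adjusted p = 0.00833) fell by similar amounts, at log2 changes of -0.42 each. Ifnlr1, the type III receptor chain, fell from 24.7 CPM ± 5.52 to 14.9 CPM ± 0.193 (log2 change -0.73, SE 0.16, adjusted p = 0.0101). All NHD13 libraries of these 4 chains lay below WT, and each kept its call when any library was left out and lost it with the Y-linked covariate (adjusted p = 0.136 to 0.281). Behind the receptors, the kinase gene Jak1, whose product serves all interferon receptors, was at 271 CPM ± 6.61 and 275 CPM ± 14.1 (n = 3 each).

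**Figure D4:**
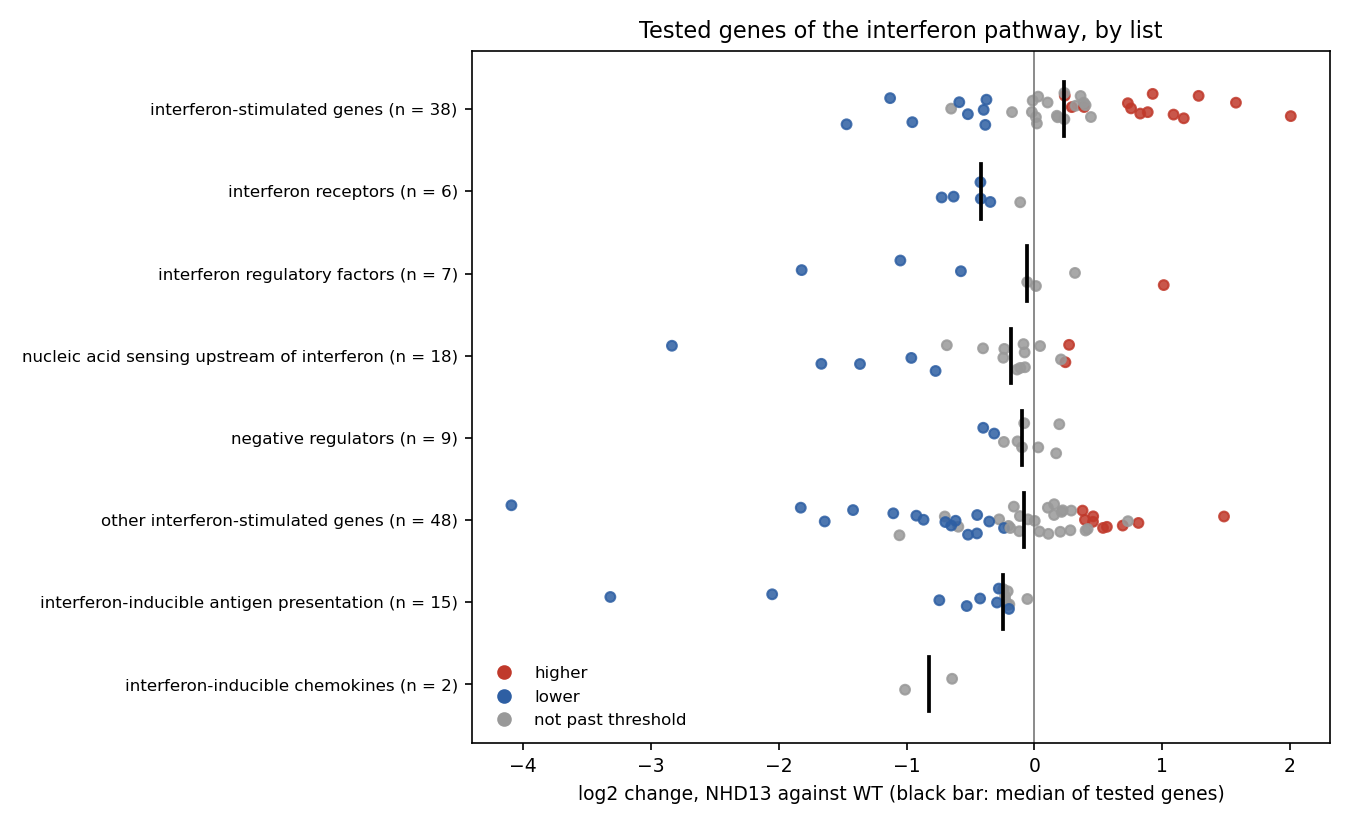
Log2 change in NHD13 against WT (horizontal axis) of each tested gene in the interferon-stimulated list and in 7 of the pathway lists, with the median of each list as a black bar. Points are red where higher, blue where lower and grey where not past the threshold. The receptor and antigen presentation rows lie left of 0 (medians -0.42 and -0.24), and the interferon-stimulated row spans both sides (median 0.23).

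The interferon regulatory factors are transcription factors downstream of sensors and receptors, and of 7 tested 1 rose and 3 fell. That is 14.3% higher, near the 15.0% of all tested genes, and 42.9% lower, against 15.3%. Irf7, the factor that amplifies type I interferon, rose from 10.8 CPM ± 2.85 to 21.8 CPM ± 6.73 (log2 change 1.01, SE 0.26, adjusted p = 0.0213), and Irf8 (log2 change -1.82, SE 0.23, adjusted p = 0.00139), Irf5 (log2 change -1.05, adjusted p = 0.00197) and Irf1 (log2 change -0.57, adjusted p = 0.0201) fell. The call of Irf7 was lost without WT replicate 1 or 2 or NHD13 replicate 2 or 3 (adjusted p = 0.0689 to 0.0796) and with no count filter (0.0553), and that of Irf1 without any 1 WT library or NHD13 replicate 2 or 3 (0.0506 to 0.0875). Of 18 genes that sense nucleic acids upstream of interferon 2 rose (11.1%, below the share of all genes) and 5 fell (27.8%). Tlr3 had 13, 25 and 26 counts in WT and 1, 4 and 4 in NHD13. Tlr8 fell from 4.73 to 1.48 CPM, Unc93b1, which carries these receptors to endosomes, from 215 to 126 CPM, and Tmem173, which encodes STING, from 56.9 CPM ± 2.27 to 29.2 CPM ± 9.77 (adjusted p = 0.0079). Of 9 tested negative regulators 2 fell (22.2%, against 15.3% of all tested genes), Tnfaip3 (log2 change -0.40, adjusted p = 0.0302) and Ptpn6 (log2 change -0.31, adjusted p = 0.0337). Both were lost without WT replicate 2 or 3 or NHD13 replicate 2 or 3 (adjusted p = 0.0931 to 0.126 for Ptpn6 and 0.0998 to 0.111 for Tnfaip3).

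Of 48 other interferon-stimulated genes tested 9 rose (18.8%, against 15.0% of all tested genes) and 15 fell (31.2%, against 15.3%). Ifi203 (log2 change -1.64, SE 0.11, adjusted p = 6.59e-05), which encodes a nuclear DNA-binding protein of the HIN-200 family, fell, as did Ms4a4c (log2 change -1.83, adjusted p = 0.00075) and Epsti1 (log2 change -1.10, adjusted p = 0.00151). Ifi203 had a WT mean of 54.9 CPM ± 4.29 and an NHD13 mean of 17.6 CPM ± 2.25. Ifi205, of the same family, had 27 to 42 counts in the WT libraries and 2 in each NHD13 library, under the floor of 3 counts, and no fold is given. All 7 genes of that family with a row were tested, and 6 fell, Ifi205 included. The family is not one of the lists and was counted by symbol. Of the genes with a Slfn symbol, counted in the same way, 8 were tested, 0 rose, 2 fell and 6 did not pass. Of 15 tested genes of interferon-inducible antigen presentation 8 fell. Cd74, the invariant chain of MHC class II, fell from 33.3 CPM ± 7.81 to 3.32 CPM ± 0.777 (log2 change -3.32, adjusted p = 6.39e-05), and Ciita, the activator of the class II genes, had 29, 47 and 28 counts in WT and 5, 9 and 12 in NHD13. In the class I pathway Psmb8, a subunit of the immunoproteasome, fell from 134 CPM ± 11.4 to 80.1 CPM ± 9.94 (log2 change -0.74, adjusted p = 0.00189), and Psme2, a proteasome activator, from 123 CPM ± 0.741 to 101 CPM ± 0.869 (log2 change -0.28, adjusted p = 0.00879). Of 6 listed chemokines 2 could be tested, Ccl5 (2.57 CPM ± 1.24 and 1.27 CPM ± 0.697) and Cxcl10 (1.2 CPM ± 0.224 and 0.76 CPM ± 0.383), and the number past the threshold was 0 by edgeR, DESeq2 and limma-voom and 0 at an unadjusted p under 0.05. With both replicates 1 left out Ccl5 passed (adjusted p = 0.013).

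Markers of several other cell types moved between the groups as well. Beside the counts below, 15.0% of all tested genes were higher in NHD13 and 15.3% lower. Of 9 tested monocyte and macrophage markers 8 fell, and the 10 with a row summed to 4320 to 6290 CPM in WT and 2640 to 2900 CPM in NHD13. Of 6 tested plasmacytoid dendritic cell markers 5 fell and 1 rose, and all 9 summed to 280 to 386 CPM and 124 to 174 CPM. Most of that sum was Irf8 (means 279 CPM in WT and 79.1 CPM in NHD13), already given among the regulatory factors. Tcf4, the marker that rose, had means of 47.6 and 65.1 CPM. Siglech, a defining marker, was at 1.34 to 6.06 CPM in WT and 0 to 0.346 CPM in NHD13. Of 6 tested conventional dendritic cell markers 4 fell and 1 rose (53.4 to 77.7 CPM and 20.2 to 29.5 CPM summed over 8). All 5 multipotent progenitor markers fell (332 to 389 CPM and 79.8 to 133 CPM). In the other direction, 5 of 6 tested erythroid markers rose, with sums over 7 of 1190 to 1340 CPM in WT and 1430 to 2220 CPM in NHD13. NHD13 replicate 1 was the NHD13 library nearest to the WT mean in the erythroid, multipotent progenitor, plasmacytoid dendritic, T and NK cell, B cell and megakaryocyte sums. It was not the nearest in the conventional dendritic, monocyte and macrophage, neutrophil, mast cell and basophil or long-term HSC sums. T and NK cell markers summed to 191 to 248 CPM and 128 to 236 CPM over 9 genes, with 2 of 4 tested lower. Nkg7, which did not pass, made up most of these sums (means 201 CPM in WT and 159 CPM in NHD13). B cell markers summed to 18.5 to 25.6 CPM and 12.1 to 16.7 CPM over 7 genes, with 1 of 2 tested lower. Of mast cell and basophil markers 6 of 6 fell, from 265 to 588 CPM to 49 to 73.8 CPM. Among 6 megakaryocyte markers 1 rose and 1 fell, or 16.7% each, near the shares of all tested genes. Of the 11 neutrophil markers 8 fell. The part of these cell types in the changes of the interferon-stimulated genes was not tested.

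The calls held to different degrees. All 21 genes past the threshold kept their direction in all 16 alternative fits. Outside the fit with the Y-linked covariate, 8 of them were past the threshold in every alternative: Oasl1, Oas2, Oas1a and Isg15, which rose, and Ifitm2, Ifitm1, Ifi47 and Gbp3, which fell. With the covariate, which goes in part with genotype, 3 rose, Oasl1, Oas2 and Isg15, and 0 fell by edgeR, with 4 lower at an unadjusted p under 0.05. Of all tested genes 0.924% were higher and 1.46% lower in that fit.

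**Figure D5:**
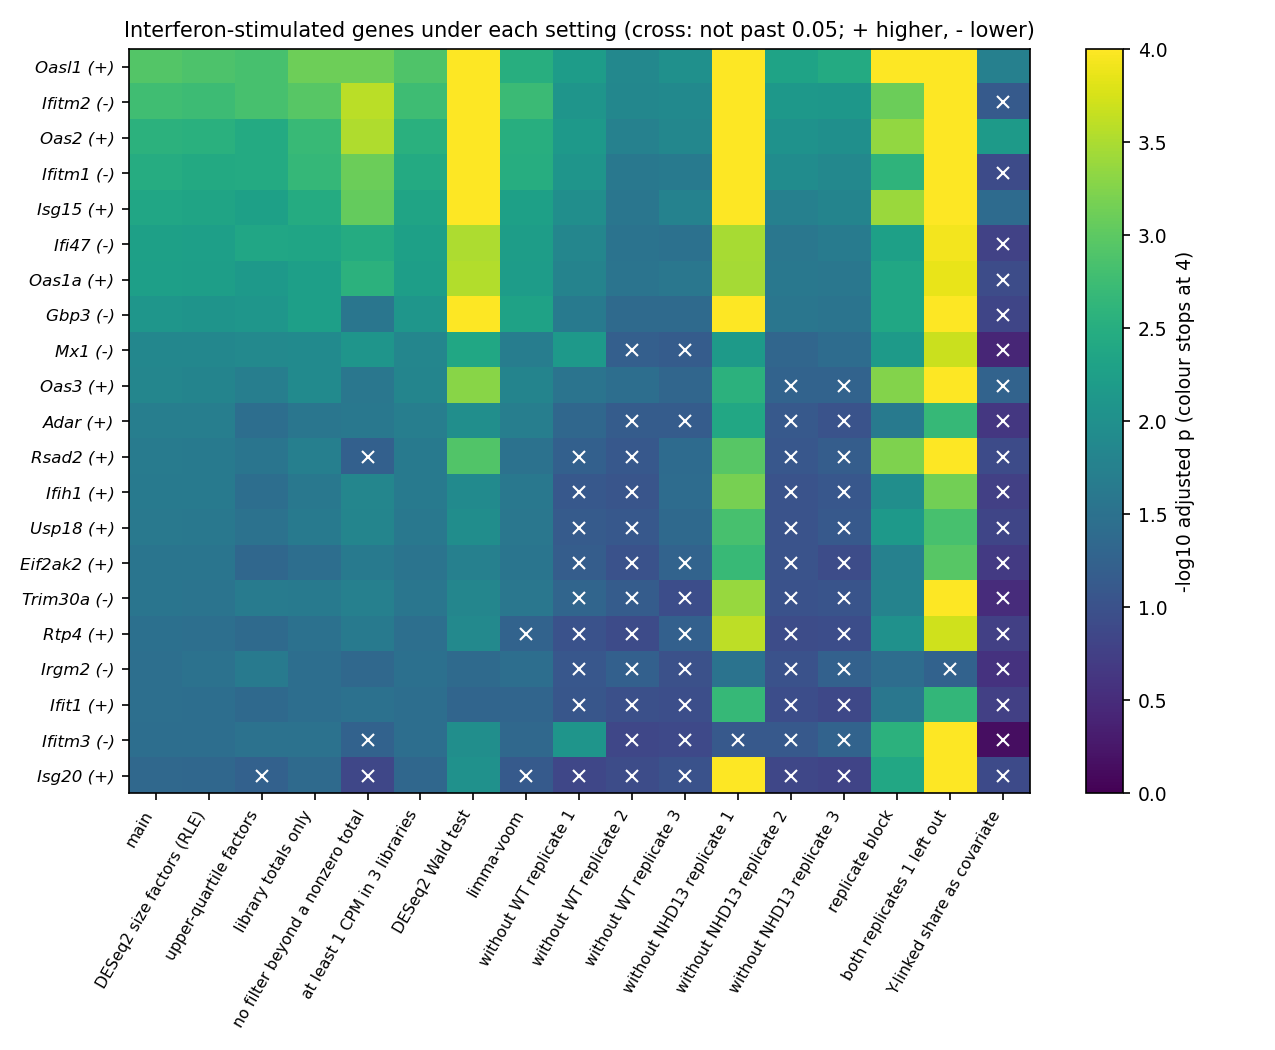
Adjusted p (colour, as -log10, stopping at 4) of the 21 interferon-stimulated genes past the threshold, ordered from the top by p, under the main setting and 16 alternatives. A white cross marks a fit in which the gene is not past 0.05: crosses gather in the lower rows when a library is left out, and in the last column only Oasl1, Oas2 and Isg15 have none.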

How the data were processed

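RNA of 3 WT and 3 NHD13 libraries was sequenced. The deposited table holds raw counts per gene symbol, whole numbers and not normalised. Tools named by the submitters' processing notes are HTSeq 0.5.4p3 and Bowtie2 2.2.1, with build mm10. Annotation and strand setting: not given in the sources used here. Columns were matched to samples by group letter and replicate number; 0 columns were left out.

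Counts were tested with edgeR 4.0.16 (R 4.3.3): filterByExpr with a minimum count of 10, TMM scaling, robust quasi-likelihood fit with genotype as the only term, two-sided, Benjamini-Hochberg over all 12013 tested genes, threshold 0.05. Each SE was taken as the log2 change divided by root F, and CPM used TMM-scaled library sizes. The script was tested on simulated data. Alternatives used DESeq2 1.42.0, limma 3.58.1 (voom), other scalings and filters, left-out libraries, a replicate block and the Y-linked share as a covariate. Positions and exon lengths are from GENCODE vM21 (all 39 genes matched), promoters from RefSeq. Floors cover counting error only.

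The genes, lists and alternatives were chosen with earlier results of these data known. Values in every library are given for up to 12 genes in each direction in order of p and the 6 with the most CPM that did not pass; of each pathway list at most 4 genes are named, by lowest p, or the 2 with the most CPM, beside Oas1g, Gbp5 and Ifitm6, which were named after their values were seen. The results of 1 pathway gene and of the list that holds it are not reported here.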

Additional observations from a re-analysis of the deposited data

How the results depend on the processing

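Leaving out 1 library gave 4 to 17 interferon-stimulated genes higher and 4 to 7 lower, 7 to 20 pathway genes higher and 21 to 46 lower, and 760 to 3012 of all genes higher and 957 to 2966 lower. The log2 ratio of the summed interferon-stimulated genes, 0.045 in the full set, ran from -0.0011 (without NHD13 replicate 3) to 0.099. With both replicates 1 left out, 3244 of all genes were higher and 3245 lower, and 19 pathway genes were higher and 64 lower. In the fit that held the Y-linked share these were 111, 175, 1 and 3, and of the interferon-stimulated genes 3 were higher and 0 lower (edgeR; 14 and 4 at an unadjusted p under 0.05). The cause was not tested. Of genes not past the threshold, some changed sign when a library was left out: Bst2 ran from -0.11 to 0.036 (log2), Ddx58 from -0.094 to 0.035, Ifi35 from -0.021 to 0.096, Ifit2 from -0.11 to 0.12, Iigp1 from -0.46 to 0.44, Mx2 from -0.37 to 0.038, Stat2 from -0.043 to 0.058, Zbp1 from -0.10 to 0.44 and Jak1 from -0.015 to 0.071. Upper-quartile scaling gave Ifi35 -0.013, Stat2 -0.023, Ifit2 -0.032 and Jak1 -0.018, limma-voom gave Iigp1 -0.035, and both replicates 1 left out gave Mx2 0.044. The covariate gave Mx2 0.0058, Ddx58 0.11, Bst2 0.16, Ifit2 -3e-04 and Ccl5 0.40. DESeq2 size factors, library totals and a filter of 1 CPM in 3 libraries changed no call of the tested interferon-stimulated genes. Libraries of the same number share only that number: their deviations correlated at 0.25, 0.063 and 0.17, NHD13 replicate 2 correlated more with WT replicate 3 (0.15) than with its own number, and a fit with the replicate block gave 15 interferon-stimulated genes higher and 9 lower (2007 and 2233 of all genes), the additions being Dhx58 (adjusted p = 0.0266), Cmpk2 (0.0496) and Gbp2 (0.0285). With both replicates 1 left out Dhx58 (0.00384), Cmpk2 (0.00245), Irgm1 (0.00208) and Xaf1 (0.0104) passed too. Genes near 1 CPM, such as Iigp1, Mx2 and Ifi44, had fewer than 10 counts in at least 1 library, and depth limits what could be detected for them.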
